A study of Mus musculus with 8 samples.

Results

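The 10 genes described here encode the scaffold of the cardiac sarcomere. They are Ttn for the titin filament, Mybpc3 for the A-band, Actn2, Ldb3, Csrp3, Tcap, Myoz2 and Nebl for the Z-disc, and Myom1 and Myom2 for the M-band. They were chosen by name and without a cutoff on their values, but with earlier results of these data known. All 10 were found by symbol among the 25929 genes of the expression table. All 10 passed the filter on low values, as did 14442 genes in all.

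RNA-sequencing was done on mouse hearts, with 8 libraries and 2 in each of 4 groups. WT-Sham and WT-TAC were C57BL/6 mice, and Fat1-Sham and Fat1-TAC were mice labelled with the strain Fat-1, which carry the fat-1 transgene of C. elegans. This transgene encodes an n-3 fatty acid desaturase that converts n-6 into n-3 polyunsaturated fatty acids (PUFAs), and its promoter is not given in the sources used here. Transverse aortic constriction (TAC) narrows the aortic arch and loads the left ventricle with pressure, while the sham mice had the chest opened without constriction. The paper's abstract gives a duration of 8 weeks for the constriction. The methods give an age of 3 months at surgery, wild-type littermates as controls and a regular diet for all groups, and the labels say that each group holds independent samples. The p-values below therefore measure the spread between these samples. The labels name ventricular tissue, whereas the methods state that RNA came from the entire heart.

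The sarcomere is bounded by Z-discs, at which actin filaments are anchored by alpha-actinin, and is centred on the M-band, at which myosin filaments are joined by myomesins. Titin spans from the Z-disc to the M-band and acts as the molecular spring and ruler of the myocyte, and its length is set by alternative splicing. Several Z-disc proteins are also known as sensors of stretch, and mutations in many of these genes cause cardiomyopathy.

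Values are FPKM, that is fragments scaled to gene length in kilobases and to the depth of the library, as deposited by the authors. Because the values of each gene are whole numbers of fragments at a single length, the depth was recovered from the table and lay between 14163994 and 21218331 fragments per library. The 10 genes held between 4363 (Nebl, WT-Sham1) and 76845 fragments (Mybpc3, Fat1-Sham2) in a library, so counting error was small beside the spread between libraries. Together they took 0.82% of all fragments in WT-TAC1 and between 1.28% and 1.72% in the other libraries.

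The library WT-TAC1 stood apart and enters every comparison with the WT-TAC group. The WT-TAC replicates correlated with r = 0.898 over genes, against 0.981 to 0.985 in the other groups. All 11 genes of a fixed ventricular cardiomyocyte list (Myh6, Actc1, Tnnt2 and others) had their lowest value in WT-TAC1, at a median of 0.555 times the value in WT-TAC2. WT-TAC1 also held all 6 thymocyte markers above 3 fragments, with a summed level of 1184 FPKM against 0.61 to 1.90 in the other libraries, where Rag1 was at 0 in 6 and at 0.059 FPKM in WT-TAC2. The airway list reached 1463 FPKM in WT-TAC1 and 3913 FPKM in WT-TAC2, against 0.17 to 48.6 in the other libraries. The atrial list (Myl7, Myl4, Sln, Nppa and Bmp10) summed to between 1031 and 3801 FPKM in the WT libraries and Fat1-Sham1, and to between 25.8 and 52.8 in Fat1-Sham2 and both Fat1-TAC libraries. In bulk tissue, fewer cardiomyocytes and less RNA per cardiomyocyte cannot be told apart. The main results that involve WT-TAC are therefore given also without WT-TAC1 or relative to the 11 cardiomyocyte genes. For the latter, the FPKM of a library was divided by a factor, the geometric mean of those genes in the library over that of all libraries. This factor was 0.538 in WT-TAC1 and between 0.973 and 1.21 in the other libraries. The 11 genes themselves differed between TAC and sham, and not all in the same direction. In Fat1 hearts Myh6 read 15280 and 17690 FPKM in sham and 12110 and 13230 after TAC. Myl2 read 11570 and 12430 in Fat1-Sham and 14850 and 14710 in Fat1-TAC. Values on this scale are therefore relative to these genes and do not measure the level per cardiomyocyte. Neither alternative removes the difference in the atrial list, at 2456 FPKM in each WT-TAC library and 52.8 and 35.7 in Fat1-TAC. In Fat1-TAC against WT-TAC, atrial content and genotype cannot be told apart. WT-TAC2, the library that remains without WT-TAC1, held the airway list at its highest level.

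The genes lie on 8 chromosomes of the GRCm38 (mm10) build, which the submitters' processing notes name, and the positions are those of GENCODE M21. Ttn (ENSMUSG00000051747) occupies chr2:76703980-76982547 on the minus strand, with 25 annotated transcripts of which the longest that codes for protein has 106824 bases. Mybpc3 (ENSMUSG00000002100, chr2:91118144-91136516) and Nebl (ENSMUSG00000053702, chr2:17343909-17731464) lie on the same chromosome. The other Z-disc genes are Actn2 (ENSMUSG00000052374, chr13:12269426-12340760), Ldb3 (ENSMUSG00000021798, chr14:34526603-34588682), Csrp3 (ENSMUSG00000030470, chr7:48830398-48848033), Tcap (ENSMUSG00000007877, chr11:98383811-98384953) and Myoz2 (ENSMUSG00000028116, chr3:123006206-123035015). The M-band genes are Myom1 (ENSMUSG00000024049, chr17:71002633-71126856) and Myom2 (ENSMUSG00000031461, chr8:15057653-15133541). The annotated span of Myom1 overlaps Myl12a on the opposite strand, which reached 651.2 FPKM, and the sources used here do not say whether the counting used strand.

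Promoters from RefSeq (build GRCm38.p6, from 250 bases before to 50 after the annotated start) were found for 8 of the 10 genes, with 13 entries in all because Nebl, Csrp3 and Ldb3 have several. They were searched on both strands for the E-box CANNTG, the MCAT element CATTCCT, the GATA element AGATAA or TGATAA, the MEF2 element and the CArG box bound by serum response factor. The MEF2 element was found for Ttn, Mybpc3 and Myoz2, that is in 3 of 13 entries, and in 1.86% of all 32851 promoters of the table. The CArG box was found for Ldb3, Myom1 and a Nebl entry, in 4 of 13 entries and in 1.63% of all promoters. The MCAT element was found in 1 of 13 entries, that of Nebl, against 5.36% of all promoters, the GATA element in 4 of 13 against 18.6%, and the E-box in 10 of 13 against 72.3%. The windows of the Ldb3 entries overlap and hold the same CArG box. These matches describe the letters of the windows and no binding was measured. The promoters of Ttn, Mybpc3, Myoz2 and Myom1 are shown because they hold the MEF2 or CArG letters, with the MEF2, CArG and GATA matches in capitals.
Ttn, chr2:76982498-76982797, minus strand: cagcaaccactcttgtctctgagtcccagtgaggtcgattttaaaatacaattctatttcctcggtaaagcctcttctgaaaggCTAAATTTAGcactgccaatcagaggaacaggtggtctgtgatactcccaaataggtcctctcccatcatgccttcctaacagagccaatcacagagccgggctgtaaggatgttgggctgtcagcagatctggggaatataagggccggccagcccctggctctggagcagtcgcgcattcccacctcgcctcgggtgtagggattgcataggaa
Mybpc3, chr2:91117894-91118193, plus strand: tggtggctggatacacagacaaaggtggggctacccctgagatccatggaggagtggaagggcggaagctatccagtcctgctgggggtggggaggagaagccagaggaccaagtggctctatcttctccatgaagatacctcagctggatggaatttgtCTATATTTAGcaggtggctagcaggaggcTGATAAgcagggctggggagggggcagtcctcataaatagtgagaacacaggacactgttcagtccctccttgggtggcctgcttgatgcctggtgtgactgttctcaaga
Myoz2, chr3:123034938-123035237, minus strand: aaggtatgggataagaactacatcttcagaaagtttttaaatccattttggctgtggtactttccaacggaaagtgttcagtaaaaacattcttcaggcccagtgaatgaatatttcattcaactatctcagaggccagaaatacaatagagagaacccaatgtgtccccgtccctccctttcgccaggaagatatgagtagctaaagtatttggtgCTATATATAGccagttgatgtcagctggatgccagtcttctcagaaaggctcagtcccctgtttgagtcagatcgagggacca
Myom1, chr17:71019307-71019606, plus strand: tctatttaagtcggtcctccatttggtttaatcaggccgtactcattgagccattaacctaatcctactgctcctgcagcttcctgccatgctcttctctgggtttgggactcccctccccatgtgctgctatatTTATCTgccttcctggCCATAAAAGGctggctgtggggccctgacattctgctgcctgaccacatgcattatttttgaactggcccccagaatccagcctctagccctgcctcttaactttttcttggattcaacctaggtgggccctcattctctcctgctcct
In Ttn the MEF2 match began at position -166 from the start, in Mybpc3 at -90 and in Myoz2 at -33, while the CArG box of Myom1 began at -99.

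Tcap, which encodes telethonin, the cap that joins titin N-termini at the Z-disc, had the highest mean level of the 10 genes at 1445 FPKM over 8 libraries. It was followed by Csrp3 (919.8 FPKM), which encodes the muscle LIM protein, Mybpc3 (800.9), Actn2 (741.7) and Myoz2 (618.6). Myom2 (387.8), Myom1 (210.9), Ldb3 (188.5), Ttn (156.1) and Nebl (152.4) came next. Neighbours in this order overlapped in their ranges over the 8 libraries in every case, and the order of Ttn and Nebl was the stated one in 3 of 8 libraries and that of Mybpc3 and Actn2 in 5 of 8. Csrp3 was above Mybpc3, Myoz2 above Myom2 and Myom2 above Myom1 in 8 of 8 libraries.

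This order depends on the length by which the authors divided. For 7 of the 10 genes the recovered length was the mean over annotated transcripts, which for Ttn is 18817 bases, and for Actn2, Ldb3 and Myom1 it was another length. Divided by the longest coding transcript instead, Ttn had a mean of 27.5 on the FPKM scale and became the lowest of the 10, below Nebl (41.3) in 8 of 8 libraries. Tcap (1445), Csrp3 (1169) and Mybpc3 (798.4) stayed at the top, and Myoz2 (599.2) rose above Actn2 (403.7). On this scale the range of Ldb3 lay above that of Nebl without overlap, and the order of Myom1 (202.5) and Myom2 (163.5) was the reverse of that on the deposited scale. Comparisons between libraries of 1 gene do not depend on this length.

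**Figure D1:**
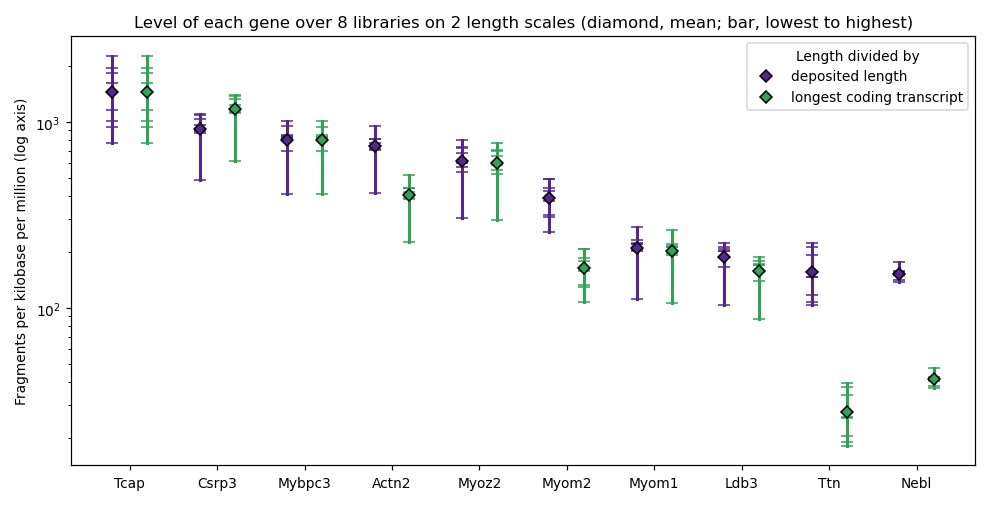
Level of each of the 10 genes (x axis) on the FPKM scale (y axis, log scale), divided by the length behind the deposited values (purple) or by the longest coding transcript (green). Diamonds are means over 8 libraries, ticks single libraries and bars the lowest to the highest; Ttn moves from 156.1 to 27.5 and Nebl from 152.4 to 41.3.

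The first question was how the scaffold transcripts differed between TAC and sham hearts of each genotype. Under the main test, limma on log2(FPKM + 1) with Benjamini-Hochberg adjustment over 14442 genes, a gene was called at an adjusted p under 0.1 and a fold over 1.5. None of the 10 genes was called in any of the 5 comparisons. The 4 groups share an estimate of the spread for each gene. WT-TAC1 therefore also enters the SE and p-values of comparisons without the WT-TAC group, such as Fat1-TAC against Fat1-Sham. Unadjusted p-values under 0.05 were found for Myoz2 in WT-TAC against WT-Sham, Tcap in Fat1-TAC against Fat1-Sham, Csrp3 and Myoz2 in Fat1-TAC against WT-TAC, and Tcap in the interaction. Over all genes, 1.81% had such a p in the negative direction of the first comparison, and 1.65%, 2.44% and 0.651% in the positive direction of the others. The test limma-voom on the recovered fragments called 0 of the 10 as well, with the same genes under an unadjusted p of 0.05. In Fat1-TAC against Fat1-Sham some settings gave Ttn, too, an unadjusted limma p under 0.05, in the positive direction. Tcap and Ttn had it with the replicate number as a block (201 of all 14442 genes) and relative to the cardiomyocyte genes (86 of all). With only the 2 groups in the fit, Tcap, Csrp3 and Ttn had it (1252 of all). The other scalings and filters gave Tcap alone. For any single gene, permuting 2 against 2 libraries (exact, two-sided) cannot reach p = 0.05.

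Ttn read 107.5 and 146.7 FPKM in the WT-Sham libraries and 103.0 and 213.6 in the WT-TAC libraries. In the Fat1 hearts it read 116.7 and 145.8 in sham and 192.4 and 223.1 after TAC. The Fat1-TAC values lay above both Fat1-Sham values, whereas in WT hearts the lowest and the highest value both came from TAC. The log2 fold change, TAC over sham, was 0.24 ± 0.34 (SE) in WT hearts, with a limma adjusted p of 0.618, and 0.66 ± 0.34 in Fat1 hearts, with a limma adjusted p of 1.0.

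Relative to the cardiomyocyte genes, Ttn was at 97.3 and 141.9 in WT-Sham and at 191.6 and 219.6 in WT-TAC. In Fat1 hearts it was at 107.8 and 120.6 in sham and at 173.2 and 194.0 after TAC. On this scale every TAC library lay above every sham library. Of all genes tested, 6.91% had all 4 TAC libraries above all 4 sham libraries on this scale, and on the deposited scale 7.82% did while none of the 10 genes did. The scaled log2 fold changes were 0.80 ± 0.24 (SE; limma adjusted p = 0.153) in WT and 0.68 ± 0.24 (limma adjusted p = 1.0) in Fat1 hearts. Without WT-TAC1, the change of Ttn in WT hearts was 0.76 on the deposited scale, with the remaining WT-TAC library assumed to vary like the other groups.

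The ratio of Ttn to Actn2 within a library, which no scaling can change, was between 0.144 and 0.190 in the 4 sham libraries and between 0.247 and 0.287 in the 4 TAC libraries, so that TAC and sham did not overlap. Of all genes tested, 11.9% had a ratio to Actn2 that was higher in every TAC library than in every sham library. Of the 10 genes, Ttn, Tcap and Nebl did, while Myom1 was lower in every TAC library, as were 0.18% of all genes. This denominator was chosen after the values were seen. The proteins of Ttn and Actn2 meet at the Z-disc, where titin binds alpha-actinin.

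Tcap was the gene with the widest span, at 1012 and 1624 FPKM in WT-Sham, 1158 and 1836 in WT-TAC, 933 and 773 in Fat1-Sham, and 2269 and 1955 in Fat1-TAC. The 2 Fat1-TAC values were the highest of the 8 and the 2 Fat1-Sham values the lowest, and the WT groups overlapped. Its log2 fold change after TAC was 1.31 ± 0.32 (SE) in Fat1 hearts, from a mean of 853.0 ± 113.1 (SD, n = 2) to 2112 ± 221.8 FPKM, with an unadjusted limma p of 0.00412 and an adjusted p of 1.0. This is a fold of 2.48, the widest of the 10 genes in any comparison. In WT hearts the change was 0.19 ± 0.32 (SE; limma adjusted p = 0.68).

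Relative to the cardiomyocyte genes, Tcap was at 916 and 1571 in WT-Sham against 2153 and 1887 in WT-TAC, and at 861 and 639 in Fat1-Sham against 2042 and 1700 in Fat1-TAC. All 4 TAC libraries then lay above all 4 sham libraries, as for Ttn, and no other of the 10 genes showed this. The scaled log2 fold changes were 0.75 ± 0.26 (SE; limma adjusted p = 0.153) in WT and 1.33 ± 0.26 (SE; limma adjusted p = 1.0) in Fat1 hearts. The ratio of Tcap to Ttn, its binding partner, lay between 8.59 and 11.8 in TAC and between 5.30 and 11.1 in sham libraries, and the groups overlapped.

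**Figure D2:**
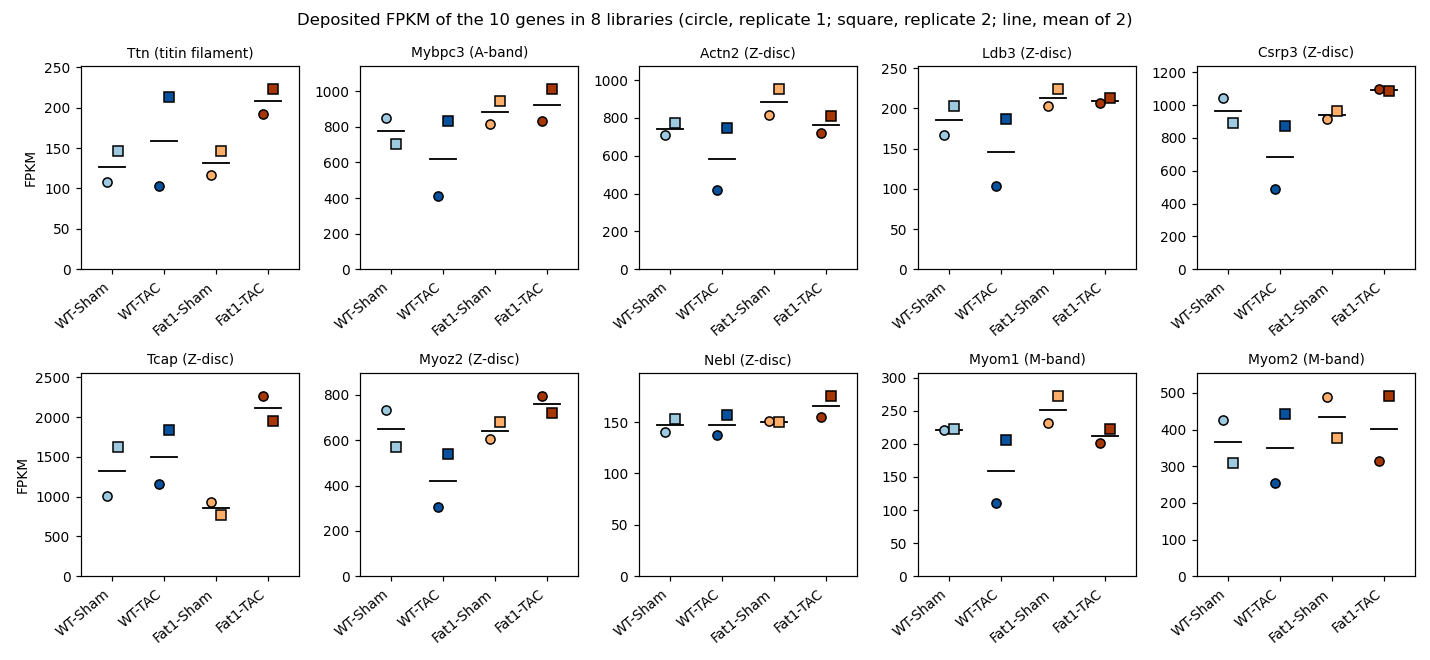
FPKM (y axis, from 0) of each of the 10 genes in the 4 groups (x axis), with replicate 1 as a circle, replicate 2 as a square and a line at the mean of 2. WT-TAC1, the dark blue circle, is the lowest of the 8 libraries for 9 of the 10 genes, all but Tcap, and Tcap is highest in the Fat1-TAC libraries at 2269 and 1955.

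For Actn2, Ldb3, Csrp3 and Myoz2 at the Z-disc, WT-TAC1 was the lowest of the 8 libraries. Actn2, which encodes alpha-actinin 2, the crosslinker of actin at the Z-disc, read 707 and 774 FPKM in WT-Sham, 417 and 744 in WT-TAC, 813 and 953 in Fat1-Sham and 718 and 808 in Fat1-TAC. Ldb3 (cypher), which binds alpha-actinin, read 167 and 203 in WT-Sham, 104 and 187 in WT-TAC, 203 and 224 in Fat1-Sham and 207 and 213 in Fat1-TAC. In both genes the other 7 libraries lay well above WT-TAC1, and for Actn2 both Fat1-Sham values were the highest. Their log2 fold changes were -0.41 ± 0.28 and -0.40 ± 0.27 (SE) in WT hearts and -0.21 ± 0.28 and -0.02 ± 0.27 (SE) in Fat1 hearts, and without WT-TAC1 the WT values were 0.01 and 0.02.

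Csrp3, a Z-disc LIM protein linked to stretch sensing, read 1040 and 892 FPKM in WT-Sham and 487 and 875 in WT-TAC. In Fat1 hearts it read 914 and 965 in sham and 1098 and 1087 after TAC. Myoz2, or calsarcin-1, which tethers calcineurin to the Z-disc, read 732 and 571 in WT-Sham, 306 and 539 in WT-TAC, 604 and 680 in Fat1-Sham, and 796 and 722 in Fat1-TAC. In both genes the WT-TAC values lay below both WT-Sham values and the Fat1-TAC values above both Fat1-Sham values. The log2 fold changes in WT hearts were -0.56 ± 0.28 (SE; limma adjusted p = 0.206) for Csrp3 and -0.67 ± 0.28 (SE; limma adjusted p = 0.181) for Myoz2, and without WT-TAC1 they were -0.14 and -0.26. In Fat1 hearts they were 0.22 ± 0.28 and 0.24 ± 0.28 (SE), each with a limma adjusted p of 1.0.

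Nebl, which encodes nebulette, a cardiac relative of nebulin, was the steadiest of the 10 genes on the deposited scale. It read 140.8 and 152.9 FPKM in WT-Sham, 137.1 and 157.1 in WT-TAC, 151.3 and 149.7 in Fat1-Sham and 154.9 and 175.6 in Fat1-TAC, with a coefficient of variation of 7.62% over the 8 libraries against 20.3% to 38.0% for the other genes. In WT-TAC1 it stood at 0.873 times its value in WT-TAC2, while the other 9 genes stood at 0.482 to 0.631 times. Relative to the cardiomyocyte genes its coefficient of variation was 26.9%, behind Tcap (39.8%) and Ttn (29.0%). Those of Mybpc3, Actn2, Ldb3, Csrp3 and Myom1 were between 6.71% and 8.06% on that scale, that of Myoz2 was 10.3% and that of Myom2 20.3%.

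Mybpc3, which encodes the cardiac myosin binding protein C of the A-band, read 851 and 701 FPKM in WT-Sham, 411 and 831 in WT-TAC, 817 and 947 in Fat1-Sham, and 836 and 1013 in Fat1-TAC. Its log2 fold change was -0.40 ± 0.33 (SE) in WT hearts and 0.06 ± 0.33 (SE) in Fat1 hearts, and without WT-TAC1 the WT value was 0.10. Of the M-band crosslinkers, Myom1 (myomesin 1) read 221 and 222 in WT-Sham, 111 and 206 in WT-TAC, 231 and 273 in Fat1-Sham, and 201 and 223 in Fat1-TAC. Both TAC groups lay below their sham groups without overlap, with log2 fold changes of -0.55 ± 0.28 (SE; limma adjusted p = 0.21) in WT and -0.24 ± 0.28 (SE; limma adjusted p = 1.0) in Fat1 hearts, and the WT value was -0.10 without WT-TAC1.

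Myom2 (M-protein) read 426 and 308 FPKM in WT-Sham, 255 and 442 in WT-TAC, 490 and 376 in Fat1-Sham, and 314 and 492 in Fat1-TAC. Its replicates differed in every group by at least 0.38 on the log2 scale, and on the deposited scale its groups overlapped throughout. The ratio of Myom2 to Myom1 within a library ranged from 1.38 to 2.30 and overlapped between TAC and sham.

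Over the 10 genes, 7 had a negative log2 fold change in WT-TAC against WT-Sham, with a median of -0.40 against 0.39 over all genes tested. Of all genes, 0.0138% were called down and 0.921% were called up in this comparison. Without WT-TAC1 the median of the 10 was 0.06 against 0.21 over all genes, and relative to the cardiomyocyte genes it was 0.16 against 0.89. In Fat1-TAC against Fat1-Sham, 6 of the 10 had a positive change and the median was 0.10 against 0.03 over all genes, of which 0.00692% were called up and 0.0% called down. Both WT-TAC libraries lay below both WT-Sham libraries for 3 of the 10 genes (Csrp3, Myoz2 and Myom1), against 7.09% of all genes, and above for none, against 52.5%. Both Fat1-TAC libraries lay above both Fat1-Sham libraries for 5 of the 10 (Ttn, Csrp3, Tcap, Myoz2 and Nebl), against 26.8% of all genes, and below for Actn2 and Myom1, against 21.5%. Relative to the cardiomyocyte genes, both WT-TAC libraries lay above both WT-Sham libraries for 5 of the 10 (Ttn, Actn2, Tcap, Nebl and Myom2), against 76.4% of all genes, and below for none, against 0.914%. In Fat1 hearts on that scale, TAC lay above sham for 4 of the 10 (Ttn, Csrp3, Tcap and Myoz2), against 24.4%, and below for Actn2 and Myom1, against 17.0%.

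**Figure D3:**
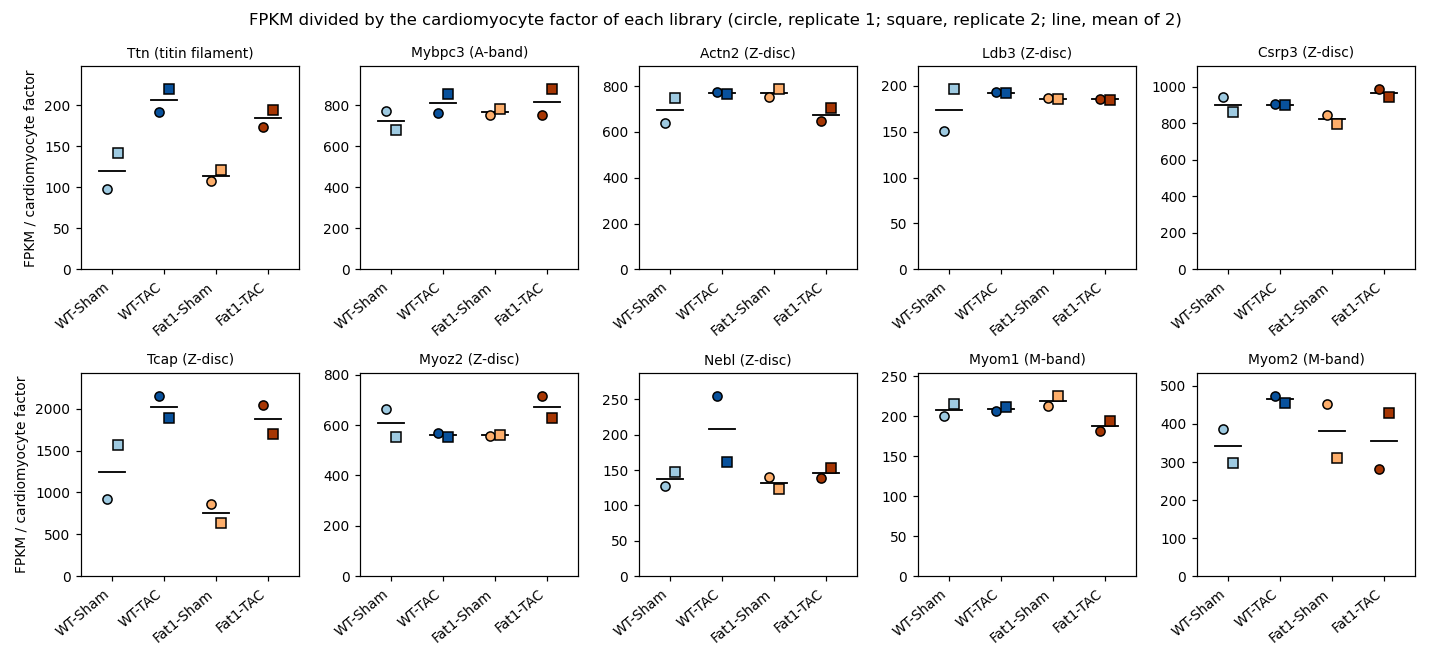
The same values divided by the cardiomyocyte factor of each library (y axis, from 0), for the 10 genes in 4 groups (x axis). For Ttn and Tcap all 4 TAC points lie above all 4 sham points, and for the other 8 genes the TAC and sham points overlap.

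The next question was how the genotypes differed. In sham hearts, the log2 fold change of Fat1-Sham over WT-Sham ran from -0.59 ± 0.32 (SE; Tcap) to 0.25 ± 0.28 (SE; Actn2), the median was 0.12 against -0.02 over all genes, and every limma adjusted p was 1.0. The change of Tcap was -0.93 without WT-Sham1 and -0.25 without WT-Sham2. No gene of the table was called in this comparison (0.0% up and 0.0% down). Both Fat1-Sham values of Tcap, 933 and 773 FPKM, lay below both WT-Sham values, 1012 and 1624, and 16.5% of all genes had this order. Actn2 and Myom1 had the opposite order, shared by 15.5% of all genes. Relative to the cardiomyocyte genes, Actn2 alone of the 10 kept the higher order, against 4.71% of all genes, and Csrp3 and Tcap had the lower order, against 20.6%.

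In TAC hearts, all 10 genes had a positive log2 fold change of Fat1-TAC over WT-TAC, from 0.17 ± 0.14 (SE; Nebl) to 0.90 ± 0.28 (SE; Myoz2). The median was 0.51 against -0.40 over all genes, of which 0.0346% were called up and 1.39% down. Myoz2 (limma adjusted p = 0.162) and Csrp3 (0.74 ± 0.28, SE; limma adjusted p = 0.164) had the lowest adjusted p-values, and without WT-TAC1 their changes were 0.49 and 0.32. Both Fat1-TAC libraries exceeded both WT-TAC libraries for Mybpc3, Ldb3, Csrp3, Tcap and Myoz2, against 9.33% of all genes, and lay below them for none, against 57.1%. Without WT-TAC1 the median of the 10 fell to 0.11 against -0.20 over all genes. Relative to the cardiomyocyte genes it was -0.14 against -0.97 over all genes, with a range from -0.47 (Nebl) to 0.26 (Myoz2). With WT-TAC1 as the only WT-TAC library, 8 of the 10 genes were called up, all but Nebl and Myom2, in a fit that called 7.44% of all genes up and 46.8% down. On the cardiomyocyte scale, both Fat1-TAC libraries still exceeded both WT-TAC libraries for Csrp3 and Myoz2, against 1.09% of all genes, and lay below them for Actn2, Ldb3, Nebl, Myom1 and Myom2, against 84.3%. The atrial list was also lower in both Fat1-TAC libraries than in both WT-TAC libraries. The part of atrial tissue in the values of the 10 genes was not tested.

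The interaction of genotype and surgery asks whether the TAC change differed between genotypes. It was 1.12 ± 0.45 (SE) for Tcap, 0.91 ± 0.40 (SE) for Myoz2 and 0.78 ± 0.39 (SE) for Csrp3 on the log2 scale, each with a limma adjusted p of 0.495. Without WT-TAC1 the interactions were 0.79, 0.50 and 0.36 for Tcap, Myoz2 and Csrp3, and relative to the cardiomyocyte genes 0.58, 0.37 and 0.23. The other 7 genes ran from -0.02 (Myom2) to 0.47 (Mybpc3), and the median of the 10 was 0.40 against -0.37 over all genes, of which 0.00692% were called up and 0.0623% called down. Without WT-TAC1 the median was -0.04 against -0.19 over all genes. A difference between the genotypes in the TAC change of these genes was not shown.

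**Figure D4:**
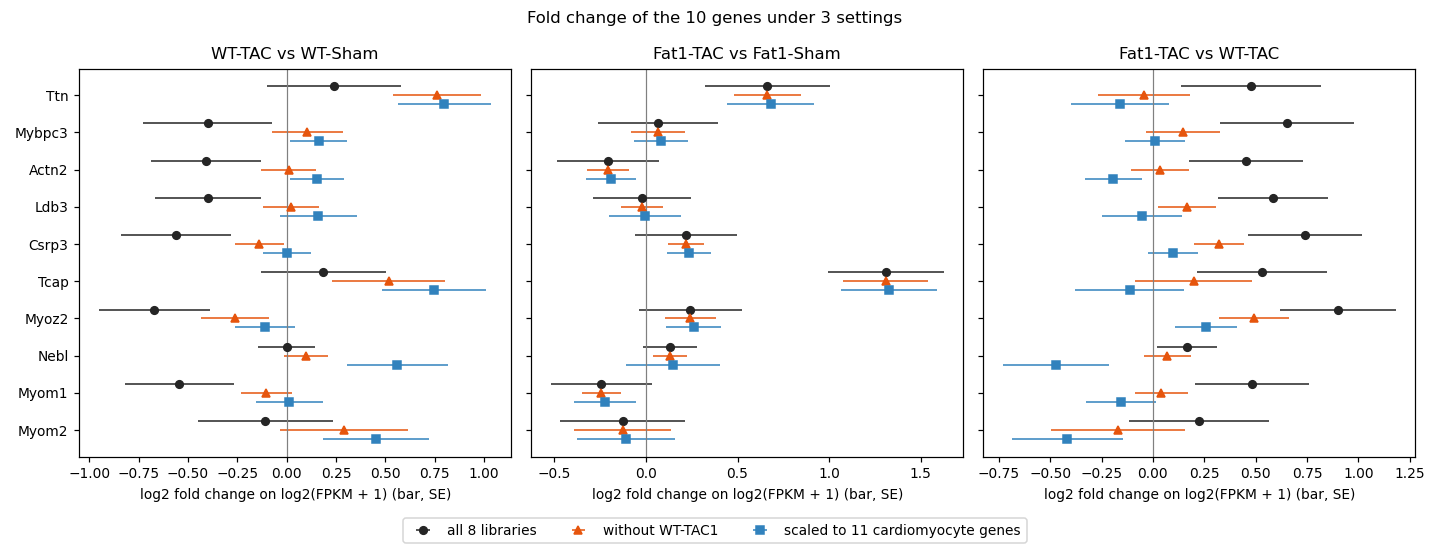
Log2 fold change (x axis, bars are SE) of the 10 genes (y axis) in 3 comparisons, with all 8 libraries (black), without WT-TAC1 (orange) and relative to the cardiomyocyte genes (blue). In WT-TAC against WT-Sham, Ttn moves from 0.24 to 0.76 and 0.80 and Actn2 from -0.41 to 0.01 and 0.15. WT-TAC1 does not enter the fold changes of Fat1-TAC against Fat1-Sham. Black and orange have the same fold changes there by design, and the blue ones lie close to them. WT-TAC1 does enter the black and blue SE bars there, through the spread that the groups share.

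Other genes of the same structures were taken from 4 lists, and no gene of any list was called in any comparison, nor without WT-TAC1 or relative to the cardiomyocyte genes. Of the 22 Z-disc partners 20 were tested, and 15 had a negative change in WT-TAC against WT-Sham (median -0.22), the largest being that of Mypn, a myopalladin that binds nebulette and alpha-actinin, at -0.62 ± 0.28 (SE; limma adjusted p = 0.186). Without WT-TAC1 the change of Mypn was -0.23, and 9 of the 20 were negative with a median of 0.08. In Fat1-TAC against Fat1-Sham 12 of the 20 were negative (median -0.07), and Myot, which encodes the actin crosslinker myotilin, had the largest change at 0.67 ± 0.26 (SE; limma adjusted p = 1.0). Myot read 23.1 and 28.2 FPKM in WT-Sham, 14.7 and 20.1 in WT-TAC, 16.8 and 25.6 in Fat1-Sham, and 30.1 and 37.3 in Fat1-TAC. Its TAC libraries lay on opposite sides of their sham libraries in WT and Fat1 hearts, and its interaction was 1.21 ± 0.36 (SE) with a limma adjusted p of 0.495, and 0.69 relative to the cardiomyocyte genes. In Fat1-TAC against WT-TAC the Z-disc partner with the largest change was Pdlim3 at -1.005 ± 0.29 (SE; limma adjusted p = 0.156), and at -1.14 without WT-TAC1. Pdlim3 read 17.2 and 20.8 FPKM in WT-TAC and 9.46 and 8.40 in Fat1-TAC. A smooth muscle list (Acta2, Myh11, Tagln and Cnn1) summed to 197 and 267 FPKM in WT-TAC and to 71.2 and 56.1 in Fat1-TAC. The part of smooth muscle in the value of Pdlim3 was not tested.

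Of the 12 genes for the titin spring and stress sensing, all tested, 8 had a negative change in WT-TAC against WT-Sham (median -0.39) and 8 a positive one in Fat1-TAC against Fat1-Sham (median 0.17). In the WT comparison the largest change was that of Capn3, a protease of skeletal muscle that binds titin, at 1.10 ± 0.70 (SE; limma adjusted p = 0.284), which rested on 10.2 FPKM in WT-TAC1 against 0.98 in WT-TAC2. WT-TAC1 also held all 9 fast skeletal muscle markers above 3 fragments, among them Tnnt3 at 48.4 FPKM against 0.40 to 4.73 in the other libraries. The summed level of that list, to which Acta1, also a gene of the heart, contributed most in every library, was 323.2 FPKM in WT-TAC1 and 114.7 to 427.1 elsewhere. Without WT-TAC1 the change of Capn3 was -0.15, and the part of skeletal muscle in the value with all libraries was not tested. Fhl2, a LIM protein that binds the titin spring, had the largest change in Fat1-TAC against WT-TAC at 0.87 ± 0.28 (SE; limma adjusted p = 0.163), with 1452 and 1404 FPKM in Fat1-TAC and 582.8 and 1043 in WT-TAC, and without WT-TAC1 it was 0.45. Without WT-TAC1 the median of the list in WT-TAC against WT-Sham was -0.06.

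Of the 12 M-band and A-band partners 10 were tested, with 7 negative in WT-TAC against WT-Sham (median -0.19) and 7 negative in Fat1-TAC against Fat1-Sham (median -0.12). Smyd1, a methyltransferase of myosin assembly, had the largest WT change at -0.75 ± 0.26 (SE; limma adjusted p = 0.175). It read 352.0 and 354.8 FPKM in WT-Sham and 158.5 and 278.2 in WT-TAC, and without WT-TAC1 its change was -0.34 and the median of the list 0.27. Mybphl, a myosin binding protein H-like gene of atrial muscle, had the largest change in the other comparisons, at -5.20 ± 1.34 (SE; limma adjusted p = 0.143) in Fat1-TAC against WT-TAC and at -5.22 without WT-TAC1. It read 27.1 to 117.7 FPKM in the 4 WT libraries and 37.3 in Fat1-Sham1, and 0.60 to 1.01 in the other 3, the same libraries in which the atrial list was lowest. The part of atrial tissue in its value was not tested.

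Of the 5 genes of titin splicing, Ptbp1, Mbnl1 and Srsf10 had unadjusted p-values under 0.05 in WT-TAC against WT-Sham, in the positive direction, and 25.7% of all genes did. Ptbp1, a repressor of exon inclusion, had the largest change at 1.55 ± 0.56 (SE; limma adjusted p = 0.176), with 122.6 FPKM in WT-TAC1, 29.7 in WT-TAC2 and 17.3 to 23.3 in the other libraries, and without WT-TAC1 the change was 0.54. Rbm20, the main regulator of titin isoforms in the heart, read 59.4 and 65.4 FPKM in WT-Sham, 39.1 and 68.2 in WT-TAC, 72.0 and 67.8 in Fat1-Sham, and 60.9 and 73.2 in Fat1-TAC. WT-TAC1 was again the lowest, and the other 7 libraries of Rbm20 lay between 59.4 and 73.2. The table holds 1 value per gene, so titin isoforms were not measured. The list medians in WT-TAC against WT-Sham were also taken relative to the cardiomyocyte genes. They were 0.34 for the Z-disc partners, 0.17 for the titin spring and 0.37 for the M-band and A-band partners. For the splicing genes the median was 1.41, and over all genes tested it was 0.89. Without WT-TAC1, on the deposited scale, the median of the splicing genes was 0.28 against 0.21 over all genes.

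**Figure D5:**
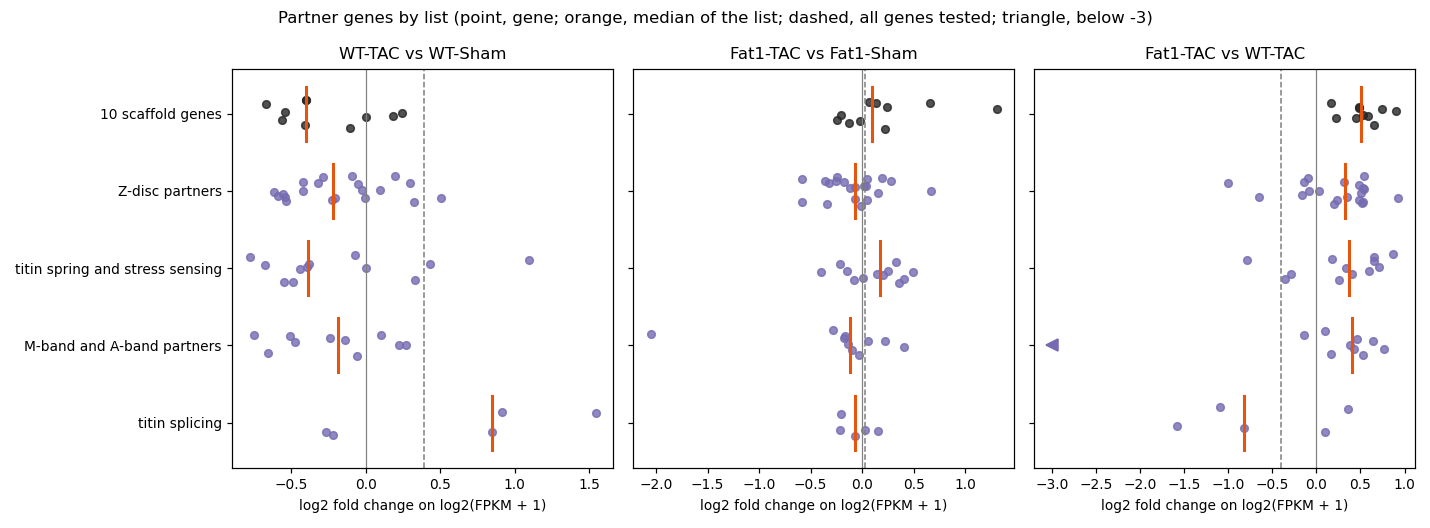
Log2 fold change (x axis) of the 10 scaffold genes (black) and of the tested genes of 4 partner lists (purple) in 3 comparisons, with the median of each list in orange and that of all genes tested as a dashed line; a triangle at -3 stands for Mybphl at -5.20. In WT-TAC against WT-Sham the scaffold genes have a median of -0.40 and all genes 0.39.

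The profiles of the 10 genes over the 8 libraries were compared with those of all other genes with a mean of 10 FPKM or more, as a description without a test. The 5 genes most like the mean profile of the 10 were Lmo7 (Pearson r = 0.993), Sccpdh (0.989), Pfn2 (0.984), Esrrg (0.98) and Prune2 (0.979), over 8 libraries. Most like Ttn were Lhpp (0.967), Wipf3 (0.963), Caskin2 (0.952), Gm29237 (0.948) and Cpeb2 (0.948). All profiles share the same libraries, and the low value of WT-TAC1 enters each of them.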

How the data were processed

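RNA was isolated from the hearts of 4 groups of 2 mouse samples and sequenced as paired ends. Per the labels, HISAT2 (version not given) and the build GRCm38 (mm10) were used, and the counting program and annotation are not given in the sources used here. The authors deposited FPKM values per gene, that is fragments divided by gene length and library depth. FPKM corrects for depth but not for other differences between libraries, and it makes levels between genes depend on the length. A factor from the median ratio of each library to all libraries (median-of-ratios) was 1.52 in WT-TAC1. In the other libraries this factor lay between 0.868 and 1.11. The fragments recovered from these FPKM values were whole for 100.00% of 25929 genes, within 0.02 or a wider limit at very high fragment numbers. The length was the mean of the annotated transcripts for 90.1% and another annotated length for 1.2%. For the rest a length was searched for that made the values whole, so wholeness is no independent check for these genes. A gene entered the test if 2 or more libraries reached 1 FPKM. On log2(FPKM + 1) values, limma (version 3.58.1, R 4.3.3; lmFit, eBayes with trend) was fitted with 4 group means over 8 libraries, with Benjamini-Hochberg adjustment over 14442 genes. The methods name t-tests, and limma was used as its moderated form across all genes. Genes were called at an adjusted p under 0.1 and a fold over 1.5. The named genes were the 10 scaffold genes, the gene with the largest absolute change of each partner list, and the 5 genes most like the mean profile and most like Ttn; others were named after their values were seen. The genes and lists were chosen with earlier results of these data known. The test was checked on simulated data in which all libraries had the same spread, so the check does not cover a library that stands apart like WT-TAC1. Figures were drawn with Python 3.11.15 and matplotlib 3.10.9. Alternatives were other scalings, filters, the pseudocount 0.1, a replicate block, fits of 2 groups, libraries left out and, chosen after seeing the data, limma-voom and the cardiomyocyte scaling without WT-TAC1. Each SE is the moderated one of limma, and each SD is over the 2 libraries of a group.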

Additional observations from a re-analysis of the deposited data

Results flagged for a closer look

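Csrp3 and Myoz2 were picked out because both WT-TAC libraries lay below both WT-Sham libraries while both Fat1-TAC libraries lay above both Fat1-Sham libraries. Of all genes, 7.09% had the first order and 26.8% the second, and the share with both was not counted. The interaction of genotype and surgery was 0.78 on the log2 scale for Csrp3 and 0.91 for Myoz2, and with a limma adjusted p of 0.495 for each, a difference between the genotypes was not shown. WT-TAC1 read 487 and 306 FPKM for these genes and WT-TAC2 875 and 539 FPKM, against 892 and 571 FPKM in the lower WT-Sham library. Without WT-TAC1 the log2 fold changes in WT hearts were -0.14 and -0.26. Relative to the cardiomyocyte genes the WT-TAC and WT-Sham libraries were no longer separated for Csrp3 or Myoz2. With groups of 2, no search for single outlying libraries within a group was possible.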

How the results depend on the processing

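The number of genes called stayed at 0 of 10 in all comparisons under every alternative run except the fit without WT-TAC2, in which WT-TAC1 alone stood for the group and was assumed to vary like the other groups. Leaving out a library gave between 0 and 6 called genes in WT-TAC against WT-Sham, between 0 and 8 in Fat1-TAC against WT-TAC and between 0 and 8 in the interaction. The fit without WT-TAC2, which gave the highest counts, called 45.0% of all genes up and 6.31% down in the first comparison, 7.44% and 46.8% in the second and 6.12% and 40.1% in the interaction. The medians then ranged from -0.82 to 0.059, from 0.11 to 0.96 and from -0.043 to 0.87. With median-of-ratios scaling the medians were -0.88, 0.97 and 0.83, relative to the cardiomyocyte genes 0.16, -0.14 and -0.14, and with that scaling and without WT-TAC1 0.19, -0.11 and -0.16.

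Signs of single genes turned as follows. In WT-TAC against WT-Sham, median-of-ratios scaling gave -0.23 for Ttn, -0.29 for Tcap and -0.47 for Nebl, and quantile normalization -0.18 for Nebl. The cardiomyocyte scaling gave 0.16 for Mybpc3, 0.15 for Actn2, 0.16 for Ldb3, 0.002 for Csrp3, 0.014 for Myom1 and 0.45 for Myom2. In Fat1-TAC against WT-TAC it gave -0.16 for Ttn, -0.19 for Actn2, -0.055 for Ldb3, -0.11 for Tcap, -0.47 for Nebl, -0.16 for Myom1 and -0.42 for Myom2, and with WT-TAC1 also left out -0.26 for Ttn and -0.019 for Tcap. Leaving out single libraries gave, in WT-TAC against WT-Sham, -0.28 to 0.76 for Ttn, -0.16 to 0.53 for Tcap, -0.10 to 0.10 for Nebl, -0.91 to 0.10 for Mybpc3, -0.83 to 0.009 for Actn2, -0.82 to 0.021 for Ldb3 and -0.50 to 0.29 for Myom2. In Fat1-TAC against Fat1-Sham it gave -0.074 to 0.20 for Mybpc3, -0.10 to 0.048 for Ldb3 and -0.45 to 0.20 for Myom2, and in Fat1-TAC against WT-TAC -0.044 to 1.001 for Ttn and -0.17 to 0.62 for Myom2. The cause was not tested. Tcap in Fat1-TAC against Fat1-Sham ranged from 1.17 to 1.45 over the libraries left out.

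Same-numbered libraries did not deviate together (correlations of -0.14 to 0.02 between groups), and the labels tie no number to a litter or day. With the replicate number as a block, 0 of the 10 genes were called in each comparison. Of all 14442 genes, that fit called 52 up and 0 down in WT-TAC against WT-Sham. It called 1 up and 51 down in Fat1-TAC against WT-TAC. The medians of the 10 were -0.40 in WT-TAC against WT-Sham, 0.10 in Fat1-TAC against Fat1-Sham and 0.12 between the sham groups. They were 0.51 between the TAC groups and 0.40 in the interaction. The 10 genes held at least 4363 fragments in every library. The values of the partner lists without WT-TAC1 and relative to the cardiomyocyte genes were chosen after seeing the data.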
